A study of Mus musculus with 84 samples.

Results

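The melanocortin receptor transcripts of epididymal white adipose tissue (eWAT) were followed in DIO mice, that is, mice made obese with a diet holding 60% fat. Members were the rows of the deposited eWAT tables that map to 3 mouse genes, Mc5r (ENSMUSG00000007480), Mc2r (ENSMUSG00000045569) and Mrap (ENSMUSG00000039956), of 48794 genes listed. They were selected on measured values: Mc5r was among the largest increases of eWAT at the highest BI 456906 dose whose values did not overlap those of vehicle, and Mc2r and Mrap were taken with it. Every value of Mc5r that involves vehicle or BI 456906 30 nmol/kg, and every member's value in that one comparison, is therefore given as a description, without a test. All mice were male C57BL/6J, aged 22 weeks when dosing began, kept on the high-fat diet and injected subcutaneously once daily for 30 days. The 7 groups received vehicle, semaglutide (20 or 100 nmol/kg) or BI 456906 (30, 20, 10 or 3 nmol/kg). BI 456906 is an agonist of both the glucagon receptor and the GLP-1 receptor, and semaglutide is an agonist of the GLP-1 receptor alone. RNA was sequenced from eWAT and liver in 84 libraries, 6 for each of the 7 groups in each tissue. The labels name no allele beyond the C57BL/6J background, and no group received both compounds.

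The melanocortin receptors are a family of G protein-coupled receptors that raise cyclic AMP through the stimulatory protein Gs. Their ligands, adrenocorticotropin (ACTH) and the melanocyte-stimulating hormones, are cut from the precursor encoded by Pomc. Mc2r encodes the ACTH receptor, which in the adrenal cortex drives the synthesis of glucocorticoids and which mouse adipocytes also carry. Mc2r responds to ACTH alone and reaches the cell surface only with its accessory protein, encoded by Mrap, a small membrane protein. Mc5r encodes a receptor for melanocyte-stimulating hormones and ACTH, known for its part in exocrine gland secretion and also found in adipocytes. In mouse adipocytes ACTH and the melanocyte-stimulating hormones are known to stimulate lipolysis, the breakdown of stored triglyceride.

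On GRCm38, in the GENCODE M21 annotation, Mc5r lies on chromosome 18 from 68337596 to 68342446 on the plus strand and Mc2r on the same chromosome from 68406907 to 68429320 on the minus strand, with 64460 bases between them. Mrap lies on chromosome 16 from 90738207 to 90749785 on the plus strand. No other annotated gene overlaps any of the 3 (0 each).

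The eWAT libraries held 37573004 to 53996914 recovered reads. Levels are given as TPM, a transcript abundance scaled for transcript length and for the total of each library. The summed TPM of 10 adipocyte markers, among them Adipoq, Plin1 and Fabp4, lay between 13256 and 39884 in every eWAT library and between 25 and 265 in liver. Liver transcripts were present in eWAT: the sum of 5 hepatocyte markers had a median of 1499 TPM in vehicle (range 18.4 to 5566) and medians of 79.3 to 262 TPM in the treated groups, and it was over 1000 TPM in 8 libraries. Among 6 epididymis and testis markers only Adam7 exceeded 1 TPM, at 4.7 TPM in library 28 of BI 456906 30 nmol/kg. Of 7 adrenal cortex markers, Cyp11b1, Cyp11b2 and Hsd3b1 had no read in 33, 40 and 39 of the 42 eWAT libraries. Library 29 of BI 456906 30 nmol/kg held 1.14 TPM of Cyp11b1 and 2.37 TPM of Hsd3b1. The summed adrenal list, to which Cyp11a1 contributed 4.44 TPM on average in vehicle, ranged from 2.26 to 11 TPM in vehicle and from 2.08 to 17.3 TPM at BI 456906 30 nmol/kg.

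Mc5r was the rarest member and the one whose level differed most between libraries. In vehicle its level was 0.09 TPM at the lowest, 0.39 at the median and 0.56 at the highest, from 5 to 26 reads. At BI 456906 30 nmol/kg it was 1.43, 3.98 and 6.81 TPM, from 55 to 253 reads. All 6 libraries at that dose were above the highest vehicle library, a separation seen for 3.41% of the 18536 genes tested, and it is what the choice of this gene rested on.

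The lower BI 456906 doses did not form a staircase. Lowest, median and highest values of Mc5r were 0.12, 0.28 and 3.31 TPM for 3 nmol/kg. For 10 nmol/kg they were 0.28, 0.54 and 0.72 TPM and for 20 nmol/kg 0.1, 0.48 and 8.23 TPM. In each of these groups the range overlapped that of vehicle, with 2, 3 and 3 of 6 libraries above its highest TPM value. Reads and TPM did not order the libraries alike at these levels. Library 14 of 10 nmol/kg, at 0.67 TPM, was above that value, while its 23 reads were below the 26 of the highest vehicle library. Single libraries stood out at 3 and 20 nmol/kg, and the library at 8.23 TPM was the highest of all 42.

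Both semaglutide groups had higher medians than vehicle. At 20 nmol/kg Mc5r was 0.61, 1.94 and 3.65 TPM, so that all 6 libraries exceeded the highest vehicle value, as 0.966% of genes did in that comparison. At 100 nmol/kg it was 0.34, 1.5 and 7.61 TPM, with 4 of 6 libraries above vehicle. Ordered by mean, the groups ran from BI 456906 30 nmol/kg (4.08 ± 1.99 TPM, SD, n = 6) through semaglutide 100 nmol/kg (2.24 ± 2.72), semaglutide 20 nmol/kg (2.04 ± 1.27), BI 456906 20 nmol/kg (1.78 ± 3.19), 3 nmol/kg (0.972 ± 1.29) and 10 nmol/kg (0.527 ± 0.199) to vehicle (0.352 ± 0.195). Each of the 6 pairs of neighbours in this order overlapped in range.

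**Figure D1:**
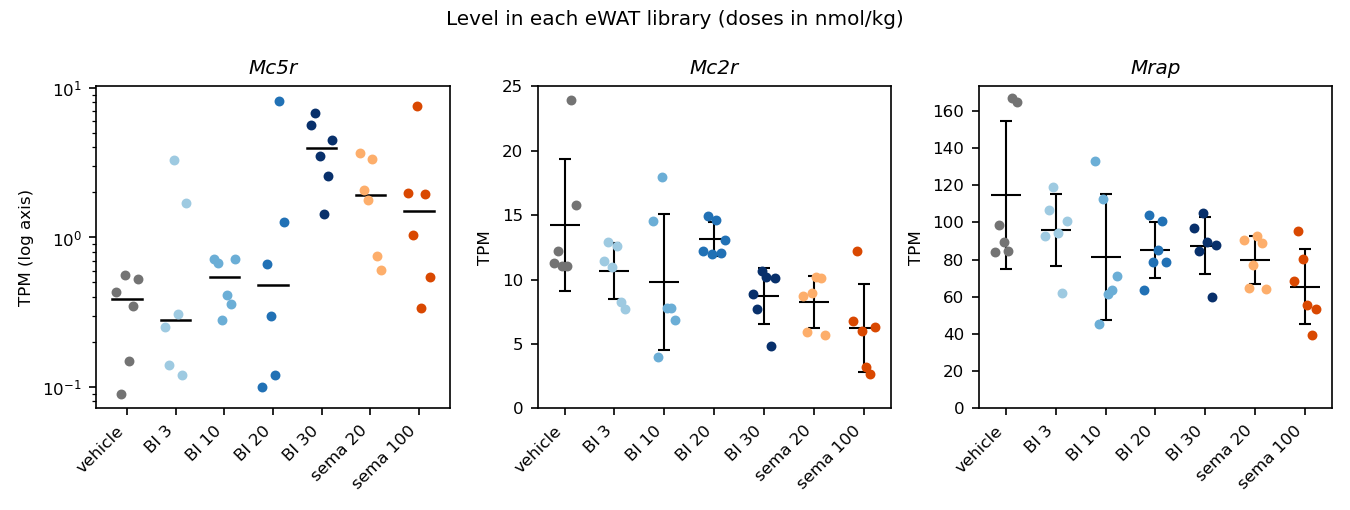
Level of Mc5r (log axis), Mc2r and Mrap in TPM in each of the 42 eWAT libraries, by group, with doses in nmol/kg and BI for BI 456906. Points are libraries, bars are medians for Mc5r and means ± SD (n = 6) for Mc2r and Mrap. Mc5r at BI 456906 30 nmol/kg lies between 1.43 and 6.81 TPM, above the highest vehicle library at 0.56 TPM, while Mc2r in the same group, at 4.84 to 10.7 TPM, lies below the lowest vehicle library at 11.1 TPM.

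On the log2 scale of the limma/voom fit, Mc5r was 3.12 higher at BI 456906 30 nmol/kg than in vehicle (SE 0.73), or 8.67 times. The difference from vehicle was 2.03 (SE 0.77) for semaglutide 20 nmol/kg and 1.92 (SE 0.78) for semaglutide 100 nmol/kg. At BI 456906 3, 10 and 20 nmol/kg it was 0.55 (SE 0.86), 0.44 (SE 0.87) and 0.71 (SE 0.85), in each case less than the error. These 6 comparisons share the vehicle libraries. BI 456906 30 nmol/kg stood 1.09 (SE 0.55) above semaglutide 20 nmol/kg and 1.19 (SE 0.56) above semaglutide 100 nmol/kg. On log2(TPM + 1), which compresses low levels, the value at BI 456906 30 nmol/kg was 1.82.

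Among the 145 genes called higher at BI 456906 30 nmol/kg with no overlap with vehicle, Mc5r had rank 2 by log2 fold change, which restates the choice of the gene and is no test of it. Being called required a log2 fold change of 1 or more in either direction together with an FDR, the false discovery rate by Benjamini-Hochberg adjustment across all tested genes, of 0.05 or less, and 2.28% of genes were called higher at that dose. Rank 1 was the gene model E030018B13Rik (4.07, SE 0.93). Below Mc5r came Ripk4, a protein kinase of epithelia (2.96, SE 0.71), and Gnrhr, the receptor of gonadotropin-releasing hormone (2.93, SE 0.59).

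The comparisons of Mc5r that the choice did not use passed no test. Over BI 456906 3, 10 and 20 nmol/kg the slope was 0.10 log2 units per 10 nmol/kg (SE 0.47, 95% interval -0.84 to 1.05, limma FDR 0.947). At the matched dose of 20 nmol/kg, Mc5r was 1.32 log2 units lower with BI 456906 than with semaglutide, with a 95% interval of the difference from -2.74 to 0.10 and a limma FDR of 0.983. Semaglutide 100 and 20 nmol/kg differed by -0.11 log2 units (interval -1.34 to 1.13, limma FDR 0.991). The direction of the slope turned without BI 456906 library 8, 23 or 24 (to -0.31 without library 23), and that of the last difference without semaglutide library 31, 34, 40 or 42 (to 0.26 without library 40). The FDR of 0.05 was passed by 0.027% of genes for the slope and by 0% in both other comparisons.

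Several marker sums differed between vehicle and BI 456906 30 nmol/kg beside Mc5r. The 6 preadipocyte and fibroblast markers summed to 2223 to 2790 TPM at that dose and 1478 to 2189 TPM in vehicle, without overlap, and 1 of 6 passed the FDR in the higher direction, beside 10.9% of all genes. The 5 brown and beige adipocyte markers summed to 55.7 to 167 TPM against 41.3 to 71.9 TPM, with 3 of 5 passing in the higher direction. The 6 mesothelial markers summed to 66.2 to 219 TPM against 9.8 to 141 TPM, with 5 of 6 passing in that direction. Adipocyte sums overlapped, at 19295 to 35196 TPM against 21037 to 39450 TPM. Of 7 lymphocyte and 5 hepatocyte markers 2 and 1 were called lower, beside 4.07% of all genes. At semaglutide 20 and 100 nmol/kg the brown and beige sum had medians of 40.7 and 37.8 TPM, against 60.8 TPM in vehicle. The mesothelial medians there were 87.4 and 90.9 TPM (66.6 in vehicle), and those of preadipocytes and fibroblasts 2306 and 2276 TPM (1793 in vehicle). The part of these cell types in the Mc5r values was not tested. In whole tissue fewer cells of a type cannot be told apart from less RNA per cell. Without the 8 libraries rich in liver transcripts, which left 2 vehicle libraries, the Mc5r difference at BI 456906 30 nmol/kg was 2.85. Without libraries 28 and 29 it was 3.57.

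Mc2r, the ACTH receptor, was more abundant than Mc5r in each group mean and its mean in every treated group was below that of vehicle. Without vehicle library 5 the vehicle mean was 12.3 TPM, which is below the mean of 13.2 TPM at BI 456906 20 nmol/kg. Its level in vehicle was 11.1 TPM at the lowest, 11.8 at the median and 23.9 at the highest. At semaglutide 100 nmol/kg it was 2.67, 6.17 and 12.2 TPM, and 5 of 6 libraries lay below the lowest vehicle library. Mc2r fell by 1.26 on the log2 scale in this group (SE 0.28, 2.39-fold lower, limma FDR 0.00208), and of the members tested against vehicle, Mc2r and Mrap, it was the one called, where 3.44% of genes were called lower. Of the 10 adipocyte markers 4 passed the FDR in the lower direction in the same group, beside 9.42% of all genes. These were Lep (-2.65), Plin1 (-0.92), Slc2a4 (-0.81) and Lpl (-0.48). The median over the list was -0.42, and the summed levels were 13889 to 31968 TPM against 21037 to 39450 TPM in vehicle. Per summed adipocyte marker level, most of which is Fabp4, Mc2r was also lower, by 0.99 log2 units. That sum had a median of 21494 TPM in this group and 23454 TPM in vehicle. The part of adipocyte content in the fall of Mc2r was not tested. The fall held under each of the alternatives run, with log2 differences of -0.99 to -1.55 and FDRs of 0.00056 to 0.0409 in the fits across genes.

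At semaglutide 20 nmol/kg Mc2r was 5.71, 8.86 and 10.2 TPM, with all 6 libraries below the vehicle range, as for 1.63% of genes. The log2 difference was -0.78 (SE 0.26), with a limma FDR of 0.0594, which misses the threshold. The 2 semaglutide doses differed by -0.48 (interval -1.08 to 0.13, limma FDR 0.969). With BI 456906 30 nmol/kg Mc2r was 4.84, 9.47 and 10.7 TPM, again with 6 of 6 libraries below vehicle (2.9% of genes), and the log2 difference was -0.71 (SE 0.25, no test). Library 29 of this group, which held adrenal transcripts, had the lowest Mc2r value of the group. Library 38 of semaglutide 100 nmol/kg, with 0.11 TPM of Cyp11b1 and 0.48 TPM of Hsd3b1, had the highest of its group, and the part of adrenal transcripts in Mc2r was not tested.

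The lower BI 456906 doses overlapped vehicle in Mc2r. For 3 nmol/kg the lowest, median and highest levels were 7.71, 11.2 and 12.9 TPM, for 10 nmol/kg 3.97, 7.79 and 18 TPM, and for 20 nmol/kg 12, 12.6 and 14.9 TPM. The log2 differences from vehicle were -0.39 (SE 0.24, limma FDR 0.662), -0.66 (SE 0.25, limma FDR 0.206) and -0.11 (SE 0.23, limma FDR 0.84), the last turning to 0.075 without vehicle library 5. Across these 3 groups the slope was 0.19 per 10 nmol/kg (interval -0.10 to 0.48, limma FDR 0.714). An FDR of 0.05 was passed by 0.00539%, 0.513% and 4.27% of genes at 3, 10 and 20 nmol/kg, by 6.33% at semaglutide 20 nmol/kg and by 14.9% at semaglutide 100 nmol/kg. At 20 nmol/kg Mc2r ranged from 12 to 14.9 TPM with BI 456906 and from 5.71 to 10.2 TPM with semaglutide. The share of all genes whose ranges were apart in this comparison was not computed. The difference of Mc2r between the compounds was 0.66 log2 units (SE 0.26, interval 0.14 to 1.19). Its limma FDR was 0.983, in a comparison in which 0 of 18536 genes passed. There 815 genes (4.4%) had an unadjusted p under 0.05, edgeR passed 0 and DESeq2 4 genes, and the unadjusted p of Mc2r from the limma fit was 0.0143.

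Mrap, which encodes the accessory protein of the ACTH receptor, was the most abundant member. Its level in vehicle was 84.1 TPM at the lowest, 94 at the median and 167 at the highest. At semaglutide 100 nmol/kg it was 39.4, 62.1 and 95.5 TPM, with 5 of 6 libraries below vehicle. In this group 9.42% of genes passed the FDR of 0.05 in the lower direction. The log2 difference of Mrap was -0.76 (SE 0.21, 1.69-fold lower), with a limma FDR of 0.0124, and was under the fold required for a call. The difference was -0.63 (FDR 0.051) without vehicle library 5, -0.62 (FDR 0.0517) without vehicle library 6 and -0.62 (FDR 0.0548) without semaglutide library 41. It was -0.77 (FDR 0.0806) in a limma fit of these 2 groups alone and -0.80 (FDR 0.133) without the libraries rich in liver transcripts.

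The other groups overlapped vehicle and did not pass the test. Mrap was 64.2 to 92.8 TPM at semaglutide 20 nmol/kg (log2 difference -0.45, SE 0.21, limma FDR 0.192). With BI 456906 it was 62 to 119 TPM at 3 nmol/kg (-0.21, limma FDR 0.822), 45.3 to 133 TPM at 10 nmol/kg (-0.48, limma FDR 0.252) and 63.7 to 104 TPM at 20 nmol/kg (-0.41, limma FDR 0.258). At 30 nmol/kg it was 60.1 to 105 TPM, a log2 difference of -0.34 (SE 0.21, no test). The matched comparison at 20 nmol/kg gave 0.046 log2 units between the compounds, with an interval of -0.37 to 0.46 (limma FDR 0.988). Liver transcripts stood beside Mrap in the vehicle libraries, and liver holds Mrap itself. The highest sum of hepatocyte markers in eWAT was 6.74% of the liver median. That share of the median liver level of Mrap is 3.92 TPM. Whether liver Mrap enters eWAT libraries in proportion to these markers was not tested, nor was the part of liver transcripts in eWAT Mrap.

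**Figure D2:**
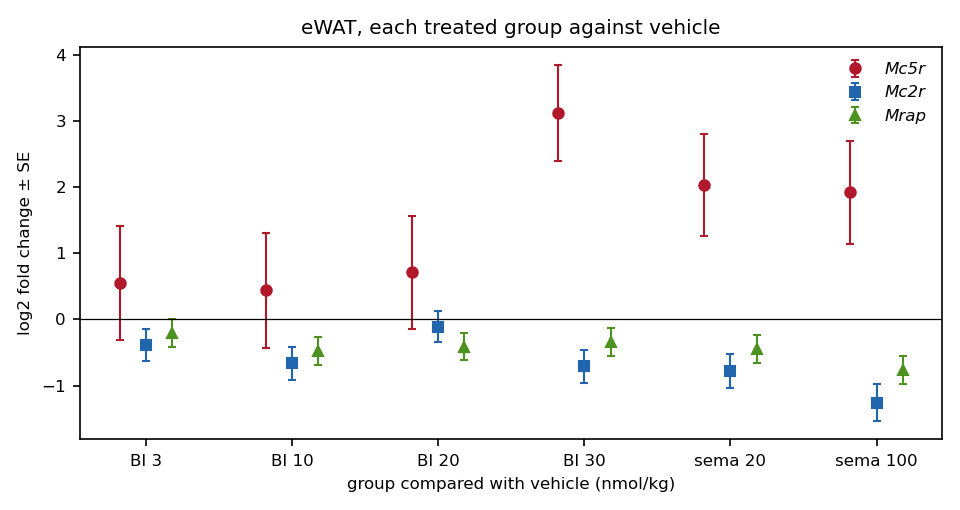
Log2 fold change of each treated eWAT group against vehicle for Mc5r, Mc2r and Mrap, with bars of ± SE from the limma/voom fit of 42 libraries, doses in nmol/kg. Mc5r lies above 0 in each group and reaches 3.12 at BI 456906 30 nmol/kg, Mc2r reaches -1.26 and Mrap -0.76 at semaglutide 100 nmol/kg.

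The ratio of the mean Mc2r level to the mean Mc5r level, both in TPM, was 40.5 in vehicle. With BI 456906 it was 11 for 3, 18.6 for 10, 7.39 for 20 and 2.14 for 30 nmol/kg, and with semaglutide 4.06 for 20 and 2.77 for 100 nmol/kg. Single libraries moved it by over 1.5 times in 3 groups, to 21 without library 9 at BI 456906 3 nmol/kg, to 27.3 without library 23 at 20 nmol/kg and to 5.35 without library 39 at semaglutide 100 nmol/kg. Mc2r was also expressed per summed adipocyte markers (TPM of the gene per 10000 TPM of the markers). It was then 4.28 to 6.07 in vehicle, 2.51 to 3.28 at BI 456906 30 nmol/kg (no test) and 1.57 to 3.83 at semaglutide 100 nmol/kg. The share of all genes whose scaled ranges lay apart from vehicle was not computed. The marker sum itself had medians of 23454 TPM in vehicle, 31989 TPM at BI 456906 30 nmol/kg and 21494 TPM at semaglutide 100 nmol/kg. The scaled fall at semaglutide 100 nmol/kg was 0.99 log2 units, and the exact two-sided permutation p of 0.00216 is the smallest that 6 against 6 libraries allow. At semaglutide 20 nmol/kg the scaled difference of Mc2r was -0.67 (exact permutation p = 0.00433). Scaled in the same way Mrap was 35.3 to 44.5 in vehicle and 23.1 to 40.1 at semaglutide 100 nmol/kg, a log2 difference of -0.48 (exact permutation p = 0.00433), and at BI 456906 20 nmol/kg 25.3 to 35.2, a difference of -0.44 (exact permutation p = 0.00216). Adjusted over the 19 scaled tests these p-values were 0.0205, 0.0206, 0.0206 and 0.0205 in the order given. Fabp4 makes up most of the marker sum.

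The rest of the melanocortin system was sparse in eWAT. Mc3r, a receptor of the hypothalamus, had no read in any of the 42 libraries. Mc4r, the receptor through which the brain restrains food intake, had none in 37 libraries and at most 2 reads, and Mc1r, the receptor of pigment cells, had none in 22 and at most 2 reads. The antagonists Agrp and Asip reached at most 4 and 7 reads, and Mrap2, the second accessory protein, at most 5 reads. None of these passed the filter on low counts.

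The genes of the ligands and their processing were present at unequal levels. Pomc had group means between 1.11 TPM at semaglutide 100 nmol/kg and 1.83 TPM at BI 456906 30 nmol/kg, against 1.56 TPM in vehicle, and passed no test (limma FDR at least 0.287). The convertases Pcsk1 and Pcsk2, which cut the precursor, stayed at or below 0.24 TPM. Cpe, a carboxypeptidase that trims the cut peptides, averaged 43.6 ± 30.9 TPM (SD, n = 6) in vehicle and 66.2 ± 18.4 TPM at semaglutide 100 nmol/kg. The log2 difference there was 0.84 (SE 0.27, limma FDR 0.029), and Cpe was the single gene of the 3 tested in this list to pass. In that group 14.9% of all genes passed in either direction. Pam, the enzyme that amidates peptide ends, gave -0.29 there (limma FDR 0.0534). Atrn and Mgrn1, which act with melanocortin receptors in pigment cells, were at 14.8 and 63 TPM in vehicle and passed no test.

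Other receptors that act through Gs, and partners of such receptors, were compared with the members. Of the 24 genes in this list 20 could be tested. At BI 456906 30 nmol/kg 1 was called higher and 0 lower, beside 2.28% and 4.07% of all genes. The median log2 fold change was -0.14 beside -0.032 over all genes. The called gene was Sctr, which encodes the secretin receptor (4.64 TPM on average in vehicle and 11 TPM at this dose, log2 fold change 1.27, SE 0.33, limma FDR 0.00488). Adrb3, the main adrenergic receptor of mouse adipocytes, was at 236 TPM in vehicle and 166 TPM at this dose (-0.55, limma FDR 0.45). The Gcgr mean, for the glucagon receptor that BI 456906 engages, was 8.62 TPM in vehicle and 3.85 TPM at this dose (-0.94, limma FDR 0.112), and it stood beside the higher liver transcripts of vehicle, whose part was not tested. Glp1r, the receptor both compounds engage, had no read in 27 of 42 libraries and at most 3 reads.

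A second list held receptors of fat that act through Gi, the inhibitory protein. Of 10 tested, 3 were called lower and 0 higher at BI 456906 30 nmol/kg, where 4.07% of all genes were called lower, with a median of -0.50. These were Ptger3, a prostaglandin E2 receptor (-1.45, SE 0.25, limma FDR 0.000106), Adora1, the adenosine A1 receptor (-1.22, SE 0.26, limma FDR 0.000854), and Npr3, the clearance receptor of natriuretic peptides (-1.44, SE 0.35, limma FDR 0.00325). At semaglutide 100 nmol/kg 4 of the 10 were called lower, beside 3.44% of all genes, and Npy1r, a receptor of neuropeptide Y, passed the FDR in the higher direction (0.71, limma FDR 0.00455).

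**Figure D3:**
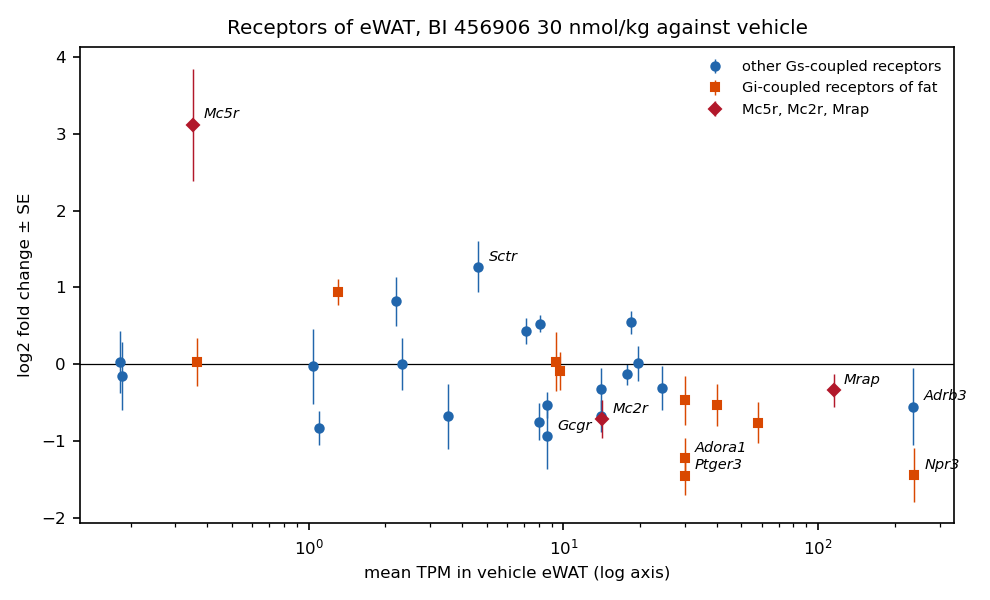
Log2 fold change ± SE at BI 456906 30 nmol/kg against vehicle (vertical axis) by mean TPM in vehicle eWAT (horizontal, log axis) for the 3 members, 20 other Gs-coupled receptors and partners and 10 Gi-coupled receptors. Mc5r stands at 3.12 and Sctr at 1.27, while Ptger3, Npr3 and Adora1 lie at -1.45, -1.44 and -1.22.

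Genes downstream of the receptors were then counted. Of 28 genes of the cyclic AMP pathway 0 were called at BI 456906 30 nmol/kg (median -0.016), beside 6.34% of all genes. At the FDR alone, which 23.9% of all genes passed, 2 passed higher, the CREB co-activators Crtc2 (0.14, limma FDR 0.0107) and Crtc3 (0.16, limma FDR 0.0104). In the lower direction 3 passed, which were Adcy7, an adenylate cyclase (-0.62, limma FDR 0.0482), Prkaca, a catalytic subunit of protein kinase A (-0.27, SE 0.077, limma FDR 0.00996), and Pde4b, a phosphodiesterase that breaks down cyclic AMP (-0.76, SE 0.23, limma FDR 0.0129). The count of called genes was 1 with edgeR and with DESeq2. Of 10 lipolysis genes 0 were called at this dose, and Abhd5, the co-activator of adipose triglyceride lipase, passed the FDR alone (0.57, SE 0.17, limma FDR 0.015). At semaglutide 100 nmol/kg 1 of the 10 lipolysis genes was called, Hilpda, which encodes an inhibitor of adipose triglyceride lipase, in the higher direction (1.03, SE 0.31, limma FDR 0.0232), as were 0.696% of all genes. In the lower direction 3 of the 10, Mgll (-0.80), Plin1 (-0.92) and G0s2 (-0.89), passed the FDR at less than the fold required for a call, beside 9.42% of all genes.

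The genes that varied most like each member over the 42 eWAT libraries differed between the members. For Mc5r the 5 with the highest Pearson r of log2 values were Glul, glutamine synthetase (0.95), the gene model D230025D16Rik (0.95), Nampt, an enzyme of NAD synthesis (0.94), Ttll7 (0.93) and Alkal2 (0.93). For Mc2r 4 of the 5 were Tmem182 (0.93), Stard13 (0.92), Plin1, which coats lipid droplets (0.91), and Ccnd2 (0.91). For Mrap they were Nnmt (0.94), Ndufb3 (0.93), Echdc1 (0.93), Decr1 (0.93) and Acyp2 (0.92). Mc2r and Mrap had an r of 0.82 with each other, whereas Mc5r had -0.29 with Mc2r and 0.037 with Mrap. All values come from the same libraries, and groups and tissue composition contribute to each r.

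The likeness to Mc5r was also present inside groups. After each group's mean was subtracted, r with Mc5r was 0.92 for Glul and 0.91 for Nampt, and r between Mc2r and Plin1 was 0.91. Glul ranged from 716 to 1808 TPM at BI 456906 20 nmol/kg, the group in which Mc5r ranged from 0.1 to 8.23 TPM. In vehicle Glul ranged from 781 to 993 TPM and at BI 456906 30 nmol/kg from 1203 to 1733 TPM. These ranges did not overlap, and 3.41% of genes lay wholly above vehicle at that dose.

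**Figure D4:**
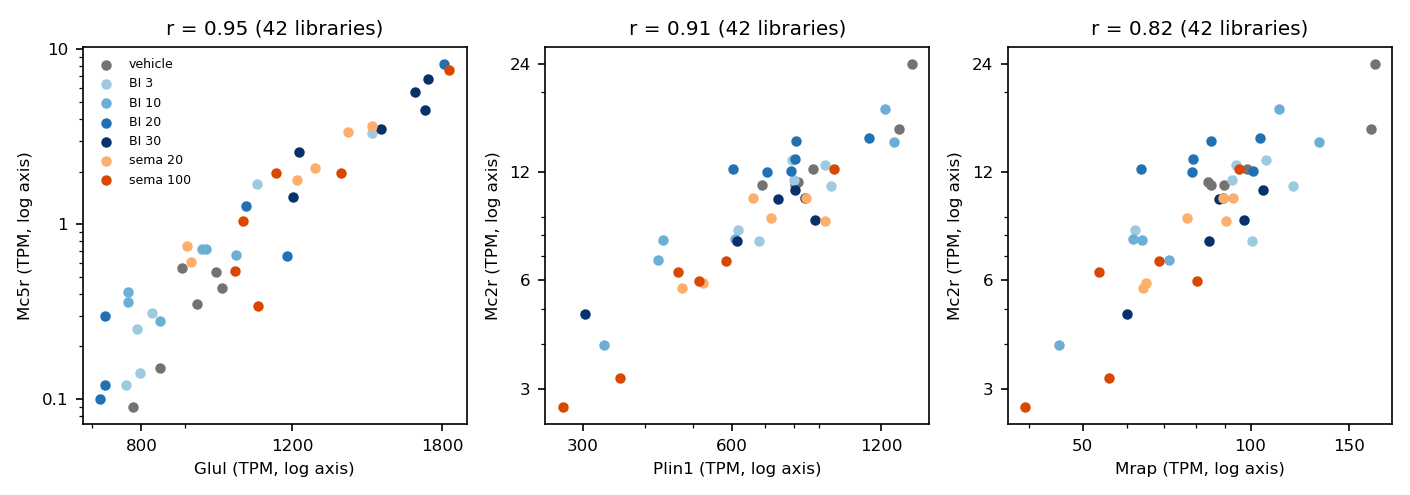
TPM per eWAT library (both axes log) of Mc5r against Glul, Mc2r against Plin1 and Mc2r against Mrap, coloured by group, with Pearson r of the log2 values over 42 libraries. The 3 panels give r of 0.95, 0.91 and 0.82, and the libraries with the highest Mc5r, at 8.23 and 7.61 TPM, also have the highest Glul.

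Of transcripts known to be induced by glucocorticoids, 12 were looked up in the same ranking after values had been seen, so their places in it are a description. The ranking also holds the vehicle and BI 456906 30 nmol/kg libraries that chose Mc5r. Fkbp5, which encodes a co-chaperone of the glucocorticoid receptor, had rank 8 of 18536 genes (r = 0.92), Zbtb16 rank 27 (0.89), Tsc22d3 rank 33 (0.88) and Klf9 rank 48 (0.86). An r above 0.7 was reached by 8 of the 12, and by 579 (3.12%) of all genes. Some of the 12 ranked far lower, with Mt1 at rank 929 (0.64), Mt2 at rank 2362 (0.48) and Dusp1 at an r of 0.14. Fkbp5 was 27.2 TPM at the lowest, 33.8 at the median and 64 at the highest in vehicle, and 110, 194 and 209 TPM at BI 456906 30 nmol/kg. At semaglutide 20 nmol/kg it was 68.5, 106 and 144 TPM and at semaglutide 100 nmol/kg 68.6, 105 and 188 TPM. No library of these 3 groups overlapped vehicle. All 6 values lay above vehicle for 3.41% of genes at BI 456906 30 nmol/kg and 0.966% at semaglutide 20 nmol/kg. For semaglutide 100 nmol/kg that share is not reported here. Mc2r had an r of -0.38 with Fkbp5 and Mrap of -0.059.

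The liver libraries, which played no part in the choice, separated the members by tissue. Mc5r and Mc2r each had no read in 41 of 42 liver libraries and 1 read in the other. Mrap was present in all of them, at 53.7 TPM at the lowest, 62.5 at the median and 72.5 at the highest in vehicle. The groups overlapped throughout, with 50 to 58.4 TPM at semaglutide 20 nmol/kg, 46.1 to 58.9 TPM at semaglutide 100 nmol/kg and 55.9 to 74.8 TPM at BI 456906 30 nmol/kg.

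At semaglutide 20 nmol/kg liver Mrap was lower than in vehicle by the test, by a small amount (log2 difference -0.24, SE 0.091, limma FDR 0.0259), in a comparison in which 46.5% of liver genes passed that FDR. Without the filter on low counts the FDR was 0.0594. At semaglutide 100 nmol/kg the difference was -0.21 (SE 0.09, limma FDR 0.0533). With BI 456906 at 3, 10, 20 and 30 nmol/kg it was -0.011, -0.18, -0.065 and 0.05, with limma FDRs of 0.956, 0.118, 0.581 and 0.649. The FDR of 0.05 was passed by 13.4%, 37.5%, 45.9% and 58.8% of liver genes at these doses and by 48.2% at semaglutide 100 nmol/kg. The difference between tissues in the change of Mrap at semaglutide 100 nmol/kg, eWAT minus liver, was -0.49 log2 units. It did not pass in a limma fit of both tissues over 15297 genes (SE 0.23, FDR 0.0913). That fit took all libraries as independent, because the labels do not tie eWAT and liver libraries to mice.

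**Figure D5:**
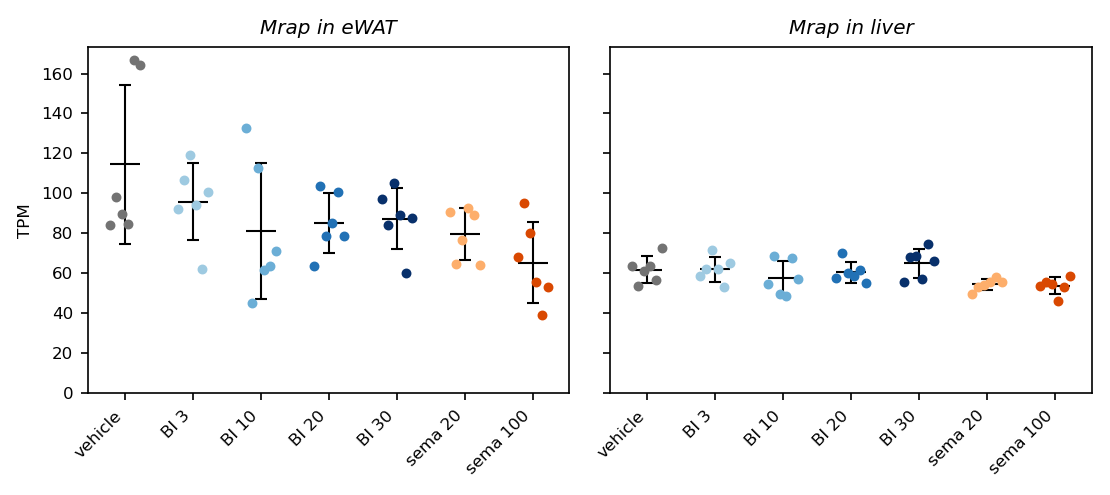
Mrap in TPM in each eWAT library (left) and liver library (right) by group, doses in nmol/kg, on a shared axis from 0, with means ± SD (n = 6). Liver libraries lie between 46.1 and 74.8 TPM in all groups, and eWAT libraries spread from 39.4 to 167 TPM.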

How the data were processed

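RNA sequencing of eWAT and liver from 7 groups of DIO mice (6 libraries each) was analysed. Per the labels, the authors' tools included STAR 2.5.2b, featureCounts 1.5.1 and RSEM 1.3.0, with GRCm38 and mm10 named as builds. The sources used here describe 2 library protocols and do not say which holds for eWAT. The deposited gene table holds a signal: the authors divided the reads of each gene by 1 factor per library, so that all nonzero values (100%, within 0.01) were whole multiples of a step of 0.868 to 1.24 in eWAT. The deposited TPM values were used as levels. Symbols and positions came from GENCODE M21 (48348 of 48794 identifiers matched).

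The deposited signal was tested with limma/voom (limma 3.58.1 and edgeR 4.0.16 under R 4.3.3) in 1 fit of 7 group means per tissue, with TMM factors, filterByExpr (18536 genes in eWAT, 15964 in liver) and a pseudocount of 0.5. FDRs are adjusted over all genes of a comparison. DESeq2 1.42.0, edgeR's quasi-likelihood test and voom were also run on recovered reads. Other alternatives were RLE factors, library size alone, other filters, limma on log2(TPM + 1) and log2(TPM + 0.1), sample quality weights, a fit of the compared groups alone, scaling by adipocyte markers with permutation tests (924 arrangements) and leaving out each library. Leaving out libraries rich in liver transcripts (over 1000 TPM) or with epididymal or adrenal transcripts (over 1 TPM), and leaving out each library for the ratio of the receptors, was chosen after seeing the data. The fits were tested on simulated data.

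The members and gene lists were chosen with earlier results of these data known. Named genes were the members, all genes of the 4 melanocortin lists, called genes with the smallest FDR of 4 receptor and pathway lists with Adrb3, Gcgr and Glp1r, the 5 genes most like each member (some genes under these rules are not reported here), the neighbours of Mc5r in rank (at most 2 on each side) and, of each marker list, the most abundant gene and those near 0. The glucocorticoid-induced genes and the genes passing the FDR alone in the cyclic AMP, lipolysis, Gi-coupled and adipocyte lists were picked for naming once their values were known. In the labels no key ties libraries to numbered mice, so p-values measure the spread between libraries.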

Additional observations from a re-analysis of the deposited data

Results flagged for a closer look

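In 28 groups of 6 libraries (3 genes in eWAT, and Mrap in liver) the highest or lowest TPM value was compared with the rest. For normally distributed values chance alone sets apart about 1 group in 20. Mc5r TPM values were skewed within groups, and the rate for such values was not computed. In 3 groups a value lay further from its neighbour than 0.625 of the group's range. Mc5r at BI 456906 20 nmol/kg was 8.23 TPM in library 23, and the other 5 libraries lay between 0.1 and 1.27 TPM (gap over range 0.86). Mc5r at semaglutide 100 nmol/kg was 7.61 TPM in library 39, and the others lay between 0.34 and 1.97 TPM (0.78). Mc2r in vehicle was 23.9 TPM in library 5, and the others lay between 11.1 and 15.8 TPM (0.63).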

How the results depend on the processing

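Of 805 values recomputed, 760 kept their direction and their side of the threshold. The direction of the Mc5r slope over BI 456906 3, 10 and 20 nmol/kg turned to -0.14 without the libraries rich in liver transcripts, and leaving out single libraries moved it from -0.31 to 0.41. The Mc5r difference between semaglutide 100 and 20 nmol/kg turned to 0.34 with edgeR, 0.33 with DESeq2 and 0.087 without liver-rich libraries (leave-one-out range -0.61 to 0.26). For Mc5r at BI 456906 30 nmol/kg log2(TPM + 1) gave 1.82. Requiring 10 reads in every library removed Mc5r and gave no value. Mc2r at BI 456906 10 nmol/kg passed with quality weights (-0.81) and without library 15 (leave-one-out range -0.87 to -0.41), and at semaglutide 20 nmol/kg with DESeq2 (-0.79) and quality weights (-0.70). At BI 456906 20 nmol/kg its value ranged from -0.17 to 0.075, above 0 without vehicle library 5. Mrap at semaglutide 100 nmol/kg missed the threshold in a fit of these groups alone (-0.77), without liver-rich libraries (-0.80) and in single omissions (range -0.85 to -0.62). Mrap at BI 456906 10 nmol/kg passed with quality weights (-0.58), and its difference between compounds at 20 nmol/kg ranged from -0.017 to 0.12. Scaled by adipocyte markers, unadjusted permutation p-values passed for Mc2r between compounds at 20 nmol/kg (0.56) and at semaglutide 20 nmol/kg (-0.67), and for Mrap in the slope (-0.20), at BI 456906 20 nmol/kg (-0.44) and at semaglutide 20 nmol/kg (-0.38), while Mrap between compounds turned to -0.053. Adjusted over the 19 scaled tests, that of Mc2r between compounds was 0.0646. In the cyclic AMP list 1 gene was called with library size alone, edgeR, DESeq2, log2(TPM + 0.1), quality weights and without libraries 28 and 29. In the Gs list 1 gene was called, against 2 with DESeq2, 2 without libraries 28 and 29, 3 with quality weights and 0 without liver-rich libraries. In liver without a filter Mrap gave 0.00053 at BI 456906 3 nmol/kg and -0.23 at semaglutide 20 nmol/kg. The cause was not tested for any of these. Leaving out liver-rich libraries or libraries 28 and 29 was chosen after seeing the data. No paired analysis was possible within a tissue, because each library number occurs in 1 group of a tissue. Between tissues none was possible because no key ties libraries to mice. Depth limits Mc5r most, with 5 to 26 reads in vehicle.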
